A study of Mus musculus with 8 samples.

Results

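The aryl hydrocarbon receptor (AHR) pathway was followed through 8 genes in the RNA-seq of Th17 cells: the receptor *Ahr*, its DNA-binding partner *Arnt*, its co-chaperone *Ptges3* and the target genes *Ahrr*, *Tiparp*, *Cyp1a1*, *Cyp1b1* and *Nqo1*. They were taken by gene symbol from 13704 genes listed in the count tables of the WT and KO libraries. All 8 were listed in WT and 7 in KO, where *Nqo1* had 0 reads. In the KO library *Ahr* stood at 24.4% of its WT level and its repressor gene *Ahrr* at 49.6%. *Tiparp* was lower as well and *Ptges3* was higher, both by less than 2-fold. *Arnt* and the cytochrome P450 genes *Cyp1a1* and *Cyp1b1* did not differ beyond counting error.

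Both libraries came from naive CD4+ T cells of mice on the C57BL/6 background, sorted from spleen and lymph nodes and stimulated with anti-CD3 and anti-CD28. They were kept for 3 days in RPMI-1640 medium with serum, with TGF-β at 0.5 ng/ml and IL-6 at 20 ng/ml. Anti-CD3 was given again before the RNA was taken. The WT cells were labelled wild type, with no floxed allele or Cre named, and the KO cells came from TRIM28fl/flxCD4cre mice, in which Cre driven by the *Cd4* promoter deletes *Trim28* in T cells from the thymus onwards. TRIM28 is a nuclear scaffold protein known as a co-repressor. For Th17 development the paper proposes that it acts mostly as a co-activator. There was 1 library per genotype, and the number of mice behind each is not given in the sources used here, so no difference has a replicate check. The other 6 samples of the series, ChIP-seq and inputs, were not analysed here.

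The WT library held 6650066 reads and the KO library 6185108 reads. *Trim28* itself had 4485 reads in WT and 180 in KO, a log2FC (log2 fold change of KO over WT, after 0.5 reads were added to both counts) of -4.53. Of 11 T-cell and Th17 marker genes, 10 had reads in each library, 3517 CPM (reads per 1e+06 reads of the library) in sum in WT and 2741 in KO. Within this sum *Il17a* (335 CPM in WT and 61.6 in KO) and *Il17f* (473 and 55.8) were lower, whereas *Cd3e*, part of the T-cell receptor complex, had 663 and 773 CPM, and *Cd3d* and *Cd3g* were higher in KO as well. Markers of other cells were low: the 5 B-cell markers summed to 12.5 CPM in WT and 7.11 in KO, and the 5 CD8 and NK markers to 7.97 and 4.69. The 7 myeloid markers summed to 0.150 CPM in WT and 13.3 in KO, of which 75 of the 82 KO reads were from *Clec12a*, while *Csf1r*, *Lyz2* and *Adgre1* were listed in neither library. The part of these cells in the differences below was not tested. In bulk RNA, fewer cells that express a gene and less RNA per cell cannot be told apart.

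The AHR is a transcription factor that waits in the cytosol, bound to HSP90 and co-chaperones, until a ligand such as a tryptophan metabolite or an environmental pollutant binds it. It then enters the nucleus, pairs with ARNT and binds DNA at xenobiotic response elements, whose core is GCGTG, near genes that break down the ligand or switch the receptor off again. Among helper T cells it is best known in Th17 cells, where it is highly expressed and is needed for IL-22.

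The starts of 4 target genes are printed because each carries the GCGTG core, and they differ in how many copies they hold. Each line gives the 250 bases before the transcription start in the direction of the gene, from RefSeq on GRCm38.p6, with every GCGTG, or its reverse complement CACGC, in capitals.
Ahrr: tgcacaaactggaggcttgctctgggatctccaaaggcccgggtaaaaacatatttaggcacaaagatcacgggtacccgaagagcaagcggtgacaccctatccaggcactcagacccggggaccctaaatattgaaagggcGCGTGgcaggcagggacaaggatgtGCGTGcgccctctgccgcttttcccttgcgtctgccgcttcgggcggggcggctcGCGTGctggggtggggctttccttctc
Tiparp: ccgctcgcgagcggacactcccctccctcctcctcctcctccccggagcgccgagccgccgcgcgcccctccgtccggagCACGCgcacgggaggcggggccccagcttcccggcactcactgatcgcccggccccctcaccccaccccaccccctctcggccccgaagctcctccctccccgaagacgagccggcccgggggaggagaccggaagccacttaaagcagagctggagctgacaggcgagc
Cyp1b1: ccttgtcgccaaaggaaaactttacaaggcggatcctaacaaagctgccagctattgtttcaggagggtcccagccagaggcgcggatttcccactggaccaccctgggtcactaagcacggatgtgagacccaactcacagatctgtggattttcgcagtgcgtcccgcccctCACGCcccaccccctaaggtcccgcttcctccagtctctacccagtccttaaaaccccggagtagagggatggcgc
Cyp1a1: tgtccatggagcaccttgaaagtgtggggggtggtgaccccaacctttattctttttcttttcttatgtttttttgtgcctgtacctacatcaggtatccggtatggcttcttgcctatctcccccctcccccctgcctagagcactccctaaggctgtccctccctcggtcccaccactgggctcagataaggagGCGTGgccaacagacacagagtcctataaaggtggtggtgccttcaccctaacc
The *Ahrr* sequence lies on the minus strand at chr13:74292332-74292581 and the *Tiparp* sequence on the plus strand at chr3:65528197-65528446. That of *Cyp1b1* is on the minus strand at chr17:79715062-79715311 and that of *Cyp1a1* on the plus strand at chr9:57697363-57697612, before a start that lies inside the span of the gene. *Ahrr* held 3 copies, all in the direction of the gene, and the 1 nearest to the start, 27 to 23 bases before it, also fitted the longer form TNGCGTG. *Cyp1a1*, *Cyp1b1* and *Tiparp* held 1 copy each. Over 32841 promoters of the same length, 28.2% held GCGTG on either strand, 2.77% held 3 or more copies and 4.10% held TNGCGTG. Of the other members, *Ptges3* held 2 copies, *Arnt* 1 and *Nqo1* none, and *Ahr* was not matched in the promoter table. A match is a stretch of letters and no measure of binding.

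**Figure D1:**
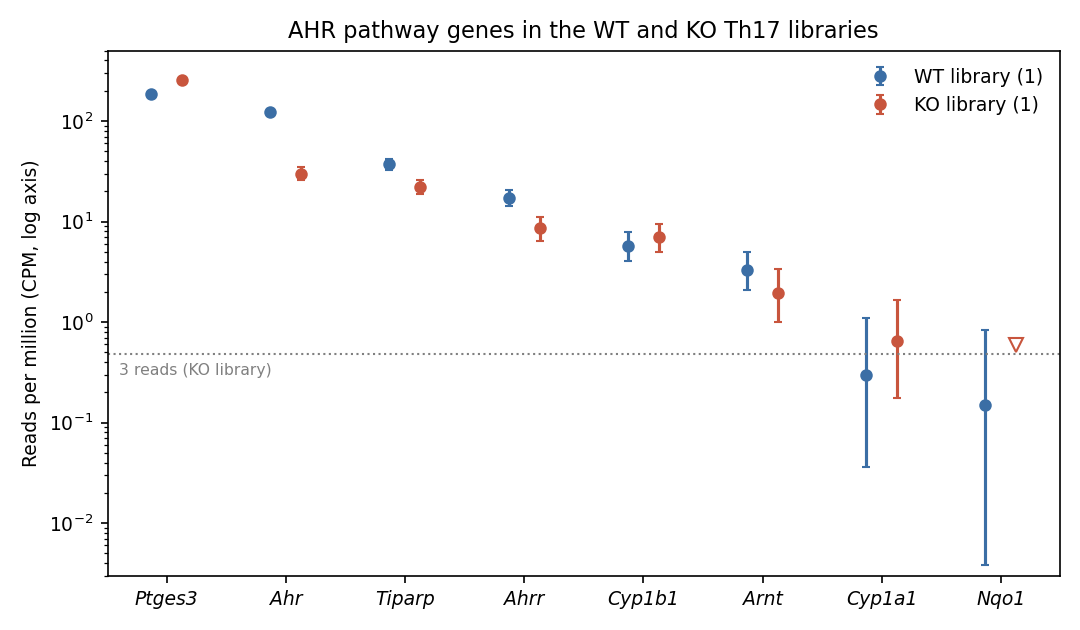
Level of the 8 members in the WT library (blue) and the KO library (red), in CPM on a log axis. Points are the 1 value per library and bars the exact 95% Poisson interval. The open triangle is the upper limit for *Nqo1*, which had 0 reads in KO, and the dotted line marks 3 reads in the KO library. *Ahr*, *Tiparp* and *Ahrr* sit lower in KO with bars that do not overlap, whereas *Ptges3* sits higher.

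*Ahr* encodes the receptor. It lies on chromosome 12 of GRCm38 from 35497979 to 35534989, on the minus strand, with 11 exons. A stretch of 127 bases of its transcript matches *Gm48236*, which was listed in neither library. It had 816 reads in WT and 185 in KO, which is 123 CPM (95% interval from 114 to 131) and 29.9 CPM (from 25.8 to 34.5). The WT level was thus 4.09 times the KO level. Its log2FC was -2.03, with an exact 95% interval from -2.27 to -1.80 that covers counting error only. In all, 10881 genes had 10 or more reads when both libraries were summed, and 182 of them had a log2FC as low as that of *Ahr* or lower.

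A gene was counted as lower or higher at a change of at least 2-fold. Of all genes with at least 10 reads, 864 (7.94%) were lower in KO and 408 (3.75%) higher. Among the members, 6 of 8 had enough reads to be counted, and 2 of these 6, *Ahr* and *Ahrr*, were lower and 0 higher. The intervals of 3 members, *Ahr*, *Ahrr* and *Tiparp*, lay wholly below 0, as did those of 25.0% of all genes, and the interval of *Ptges3* lay wholly above 0, as for 23.5% of all genes. The median log2FC of the 6 was -0.74, beside -0.02 over all genes. The whole interval of *Ahr* was beyond 2-fold. *Ahrr* was at the limit, and with TMM or DESeq2 scaling it was within it at -0.98 and -0.99, as it was at -0.78 with a curve of log2FC against transcript length taken off.

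**Figure D2:**
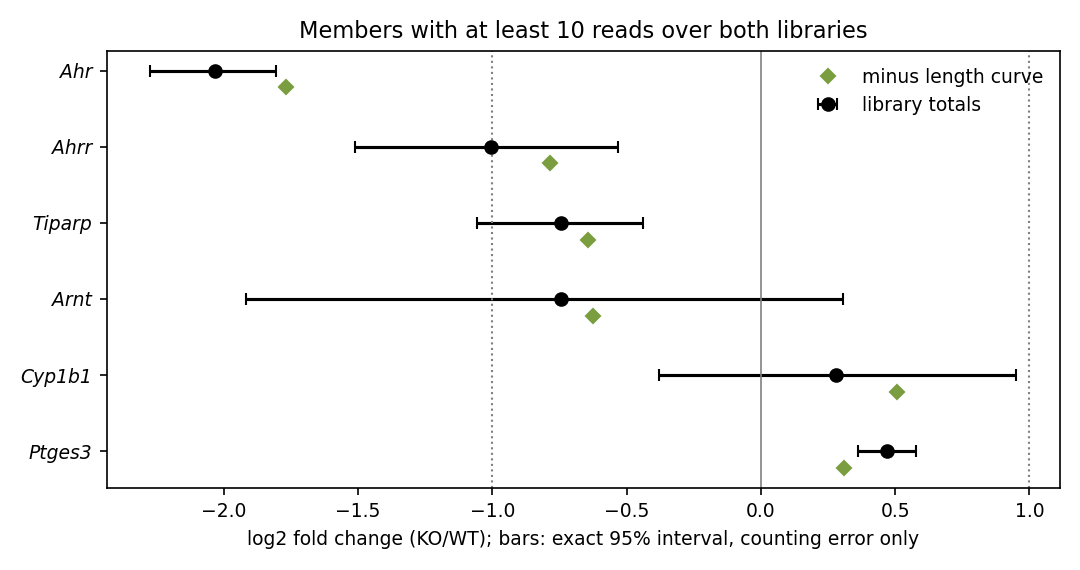
Log2FC of the 6 members with enough reads. Black points use the library totals, with exact 95% intervals of counting error, green diamonds have a curve against transcript length taken off, and dotted lines mark 2-fold. The whole interval of *Ahr* lies beyond 2-fold, and those of *Arnt* and *Cyp1b1* include 0.

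The members stood in the same order of level per length in both libraries, but *Ahr* was level with *Tiparp* in KO. Per kilobase of the longest transcript, *Ptges3* was highest in WT with 92.9 RPKM (CPM per kilobase). It was followed by *Ahr* with 22.1, *Tiparp* with 8.86, *Ahrr* with 3.39, *Cyp1b1* with 1.11 and *Arnt* with 0.765. *Cyp1a1* (0.112) and *Nqo1* (0.0968) came last, and neither that pair nor *Cyp1b1* and *Arnt* differed beyond counting error. In KO, *Ptges3* was again highest, at 128.6 RPKM, but *Ahr* stood at 5.39 RPKM beside 5.29 for *Tiparp*. The *Ahr* to *Tiparp* ratio of RPKM was 2.50 in WT (95% interval from 2.16 to 2.89) and 1.02 in KO (from 0.813 to 1.28). In KO, *Ahrr* (1.68 RPKM) and *Cyp1b1* (1.36 RPKM) did not differ beyond counting error either, nor did *Arnt* (0.449) and *Cyp1a1* (0.240). The order sets genes with 2 RefSeq transcripts beside genes with 1. The transcripts of *Ahr* share 5390 of 5494 exonic bases and those of *Ahrr* 4572 of 4754, and *Tiparp* and *Ptges3* have 1 transcript. Over all genes with at least 10 reads, the median WT level was 6.46 RPKM with 2 transcripts and 12.2 with 1. The deposited counts are of uniquely assigned reads, how reads common to several transcripts were counted is not stated, and the part of this in the order was not tested.

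Ratios of reads between members do not depend on how the libraries are scaled. Of the 15 pairs among the 6 members, 10 changed between the libraries by more than the counting error of their ratio. The pairs reuse the same 6 genes, and the share over pairs of other genes was not taken. Of single genes, 25.0% had an interval wholly below 0 and 23.5% wholly above, which is not the same measure. With no share over other pairs, the count is not read as a trait of the pathway. The *Ahr* ratio to each of the other 5 was lower in KO. It went from 7.10 reads of *Ahr* per read of *Ahrr* in WT to 3.49 in KO, a log2 change of -1.02 (95% interval from -1.56 to -0.47). Against *Tiparp* the log2 change was -1.29 (from -1.68 to -0.90). For *Ahrr* and *Tiparp*, the genes that feed back on the receptor, there were 0.466 *Ahrr* reads per *Tiparp* read in WT and 0.387 in KO, a log2 change of -0.27 whose interval from -0.86 to 0.31 includes 0 and also a change by over 1.5-fold.

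*Arnt*, the partner that AHR needs to bind DNA and that HIF-1α shares, lies on chromosome 3 from 95434367 to 95497240 with 22 exons. It had only 22 reads in WT and 12 in KO, 3.31 and 1.94 CPM. The log2FC of -0.74 had an interval from -1.92 to 0.31, so a difference was not detectable at this depth. *Arnt* has 2 RefSeq transcripts that share 4325 of 4370 exonic bases, so the limit on levels given above holds for it as well.

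Among 22 genes of the bHLH-PAS and other PAS-domain factors, the family of AHR and ARNT, 17 were listed and all 17 had at least 10 reads. Of these, 4 were lower by at least 2-fold and 1 was higher, beside 7.94% and 3.75% of all genes. The median was -0.77, beside -0.02 over all genes. Beside *Ahr* and *Ahrr*, the lower genes were *Epas1* (14 and 6 reads, -1.05), which encodes HIF-2α, and *Npas1* (10 and 4 reads, -1.12), both with intervals that include 0. The higher gene was *Arntl2* (3 and 9 reads, 1.55), whose interval from -0.31 to 4.21 includes 0. *Npas1* and *Arntl2* were named after their values were seen. *Hif1a*, the hypoxia factor and the family member with the most reads, had 8907 and 4615 reads. Its log2FC of -0.84 (95% interval from -0.90 to -0.79) was past counting error and within 2-fold. Those of the clock genes *Clock* and *Arntl* were -0.99 and -0.72, and that of *Npas4*, a gene induced by activity, was 0.87. Without the 3 members the family median was -0.76. These genes have long transcripts, and with the curve against transcript length taken off the median of the 17 was -0.54.

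*Ptges3* encodes p23, the co-chaperone that steadies HSP90 on AHR and other clients. It lies on chromosome 10 from 128058982 to 128077254 with 8 exons. It had 1236 reads in WT and 1591 in KO, 186 CPM (95% interval from 176 to 197) and 257 CPM (from 245 to 270.2). The log2FC was 0.47 with an interval from 0.36 to 0.58, past counting error and under 2-fold. A copy, *Ptges3-ps*, matches its transcript at 95% identity or more over up to 480 bases and was listed in neither library. Reads that fit both may have been left out of the count.

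No gene of the HSP90 machinery was past 2-fold. Of 18 genes of HSP90 chaperones and their helpers, 17 had at least 10 reads. Of the 17, 0 were lower and 0 higher by at least 2-fold, beside 7.94% and 3.75% of all genes. The median log2FC was 0.17. The intervals of 9 lay wholly above 0 and of 0 wholly below, beside 23.5% and 25.0% of all genes. With the length curve taken off, the median was 0.11. *Stip1*, which hands clients from HSP70 to HSP90, had a log2FC of 0.47 (2035 and 2624 reads), and *Fkbp4*, an immunophilin, 0.46 (1333 and 1705 reads). *Hsp90ab1*, the constitutive HSP90 and the gene of the list with the most reads per kilobase, had 29167 and 30565 reads and a log2FC of 0.17.

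*Ahrr* encodes the AHR repressor, a target of the receptor that competes with it for ARNT and for DNA. It lies on chromosome 13 from 74211118 to 74292331 with 11 exons. It had 115 reads in WT and 53 in KO, 17.3 CPM (95% interval from 14.3 to 20.8) and 8.57 CPM (from 6.42 to 11.2). The WT level was 2.01 times the KO level, and the log2FC of -1.01 had an interval from -1.51 to -0.53. The intervals of the 2 libraries did not overlap. Its start holds the 3 GCGTG copies printed above, and a link between the copies and the level was not tested.

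*Tiparp* encodes a mono-ADP-ribosyltransferase of the PARP family that is induced by AHR and marks it for breakdown. It lies on chromosome 3 from 65528447 to 65555518 with 6 exons. It had 247 reads in WT and 137 in KO, 37.1 CPM (95% interval from 32.7 to 42.1) and 22.1 CPM (from 18.6 to 26.2), with no overlap of the intervals. The log2FC was -0.74 (95% interval from -1.06 to -0.44), under 2-fold. An antisense gene, *4931440P22Rik*, overlaps it and had 12 reads in WT and 0 in KO. The counting is not stated to use strand, so reads of the pair cannot be told apart.

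In the PARP family of 16 genes, all had at least 10 reads. Of these, 0 were lower and 2 higher by at least 2-fold, beside 7.94% and 3.75% of all genes. The median log2FC was -0.34, or -0.22 with the length curve taken off. The higher genes were *Parp16*, which acts at the endoplasmic reticulum (72 and 145 reads, 1.11, 95% interval from 0.70 to 1.54), and *Parp12* (6 and 16 reads, 1.45, from 0.09 to 3.16). *Parp8*, with a log2FC of -0.89, and *Parp14*, with -0.73 (-0.34 with the length curve taken off), were on the same side as *Tiparp*. *Parp1*, the DNA damage sensor and the member with the most reads per kilobase, had 2122 and 2004 reads and a log2FC of 0.02.

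*Cyp1b1* and *Cyp1a1* encode cytochrome P450 enzymes that oxidise AHR ligands and are the classical read-outs of the active receptor. *Cyp1b1*, on chromosome 17 from 79706940 to 79715061, had 38 reads in WT and 43 in KO, 5.71 and 6.95 CPM. Its log2FC was 0.28 with an interval from -0.38 to 0.95, and the library values overlap within counting error. Against *Ahrr* its reads were relatively higher in KO: there were 3.03 *Ahrr* reads per *Cyp1b1* read in WT and 1.23 in KO, a log2 change of -1.30 (95% interval from -2.13 to -0.46). *Cyp1b1* also parted from *Tiparp*, by a log2 change of 1.03 in the ratio of *Cyp1b1* to *Tiparp* reads (from 0.29 to 1.77). Of the 3 target genes with enough reads, *Ahrr* and *Tiparp* were thus lower past counting error and *Cyp1b1* was not.

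*Cyp1a1*, on chromosome 9 from 57687928 to 57703824, had 2 reads in WT and 4 in KO. The ratio, on the log2 scale, was 0.95 with an interval from -1.70 to 4.57. This is at the smallest level the depth can show, 3 reads, which is 0.451 CPM in WT and 0.485 CPM in KO. *Nqo1*, which encodes a quinone reductase induced through both AHR and NRF2, lies on chromosome 8 from 107388225 to 107403205. It had 1 read in WT and 0 in KO, both under that limit. The exact interval of the 0 reads reaches 0.596 CPM, which is the triangle in the plot of levels. *Cyp1a1* also has 2 RefSeq transcripts that share 2534 of 2787 exonic bases, whereas *Nqo1* has 1.

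The wider AHR gene battery was sparse in these cells. Of 15 genes, *Cyp1a2*, *Aldh3a1*, *Gsta1*, *Gsta2* and *Lrat* were listed in neither library, and 7 had at least 10 reads. Of the 7, 1 was lower by at least 2-fold (*Ahrr*) and 0 were higher, beside 7.94% and 3.75% of all genes. The median log2FC was -0.01, or -0.12 with the length curve taken off. Without the members the median of the remaining 4 was 0.05. *Slc7a5*, a carrier of tryptophan and kynurenine and the gene of the battery with the most reads per kilobase, had 1305 and 1488 reads and a log2FC of 0.29. *Nfe2l2*, which encodes NRF2, had 372 and 344 reads and a log2FC of -0.01.

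*Nqo1* also belongs to the NRF2 battery, the genes of the response to oxidants. Of 18 genes, 15 had at least 10 reads. Of these, 0 were lower or higher by at least 2-fold, beside 7.94% and 3.75% of all genes, and the median log2FC was 0.20. The intervals of 6 lay wholly above 0 and that of 1, *Mafg*, wholly below, beside 23.5% and 25.0% of all genes. The 6 were *Gclc*, *Gsr* and 4 enzymes of the pentose phosphate pathway, which supplies NADPH. Among these *Tkt* had 3468 and 4329 reads (0.42), *Taldo1* 1031 and 1480 (0.63), *G6pdx* 710 and 905 (0.45) and *Pgd* 948 and 1407 (0.67). With the length curve taken off, the median of the 15 was 0.03.

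**Figure D3:**
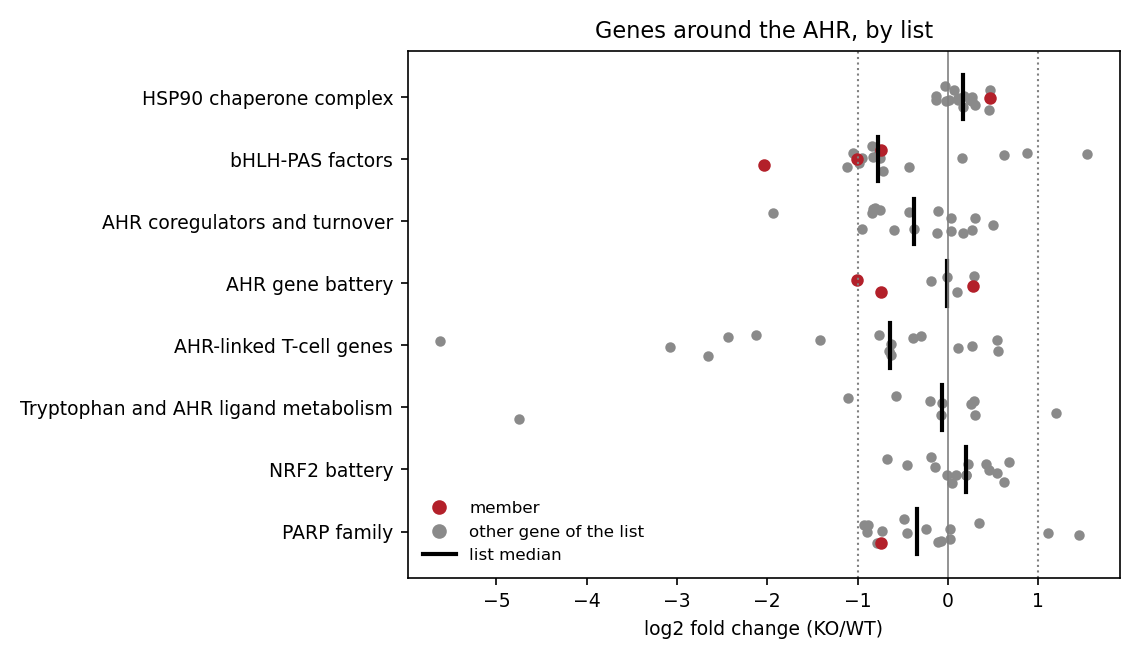
Log2FC of each gene with at least 10 reads in 8 lists around the AHR. Red points are the pathway's members, grey points the other genes of a list, black bars the list medians and dotted lines 2-fold, and the heights within a list are spread at random. The HSP90 list sits just above 0 at a median of 0.17 with no gene beyond 2-fold, and the PAS-domain list sits at -0.77.

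The co-regulators and turnover factors of AHR were compared next. Of 18 genes, 17 had at least 10 reads. Of the 17, 1 was lower by at least 2-fold and 0 were higher, beside 7.94% and 3.75% of all genes. The lower gene was *Nrip1*, which encodes the co-repressor RIP140, with 550 and 133 reads. Its log2FC was -1.94 (95% interval from -2.23 to -1.67), close to that of *Ahr*. The acetyltransferase genes *Ep300* and *Crebbp* had log2FC values of -0.83 and -0.60, and the nuclear receptor co-activator gene *Ncoa1* of -0.75. With the length curve taken off, these were -0.36, -0.09 and -0.37. The ubiquitin ligase parts *Ddb1* and *Rbx1* had -0.12 and 0.50. The median was -0.37, and -0.04 with the length curve taken off.

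Tryptophan metabolism, a source of AHR ligands, had few reads. Of 19 genes, *Ido2*, *Aadat* and *Tph1* were listed in neither library and 10 had at least 10 reads, with a median log2FC of -0.07, or -0.21 with the length curve taken off. Of the 10, 2 were lower and 1 higher by at least 2-fold, beside 7.94% and 3.75% of all genes. *Kynu*, which encodes kynureninase, had 14 reads in WT and 0 in KO and was at least 4.34-fold lower, taking 3 reads as the limit in KO. With the counting error of the WT reads included, the exact 95% interval of its log2FC ended at -1.63. It had too few reads for the naming rule and was named after its values were seen. *Slc36a4*, a carrier of amino acids, had 98 and 42 reads (-1.11). *Kyat3*, a kynurenine aminotransferase listed as *Ccbl2*, was higher with 27 and 58 reads (1.19). *Ido1*, the enzyme that starts the kynurenine pathway, had 4 reads in WT and 2 in KO.

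The last list held genes linked to AHR in T cells. *Il22*, the Th17 cytokine that depends on AHR, was listed in neither library. Of 19 genes, 16 had at least 10 reads. Of these, 6 (*Il17f*, *Il17a*, *Il21*, *Il10*, *Maf* and *Entpd1*) were lower by at least 2-fold and 0 higher, beside 7.94% and 3.75% of all genes. The median log2FC was -0.64 (-0.62 with the length curve taken off) and stayed at -0.64 with *Il10* set to its bound, at least 8.06-fold lower when 3 reads are taken for KO. With the counting error of the WT reads included, the exact 95% interval of *Il10* ended at -2.61. *Entpd1*, which encodes the ectonucleotidase CD39, had 30 reads in WT and 4 in KO (-2.66, 95% interval from -4.77 to -1.30). *Maf*, a partner of AHR at *Il10* and *Il21*, had a log2FC of -2.12, near that of *Ahr*. *Ikzf3*, which encodes Aiolos, had 2338 and 1661 reads (-0.39, from -0.48 to -0.30). *Gpr15*, a homing receptor, had 169 and 128 (-0.29), *Asb2* 139 and 140 (0.11), and *Lag3*, an inhibitory receptor, 1454 and 1975 (0.55). Many of these genes are also Th17 genes in their own right, and the list is no measure of AHR activity. It was set with earlier results of these data known, and the paper itself reports lower *Il17* and *Il17f* mRNA.

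Over all 8 lists together, 136 genes were set out, 107 had at least 10 reads, 13 (members included) were lower and 4 higher by at least 2-fold, with a median of -0.11. Without the members, 11 of 101 were lower and 4 higher, beside 7.94% and 3.75% of all genes.

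**Figure D4:**
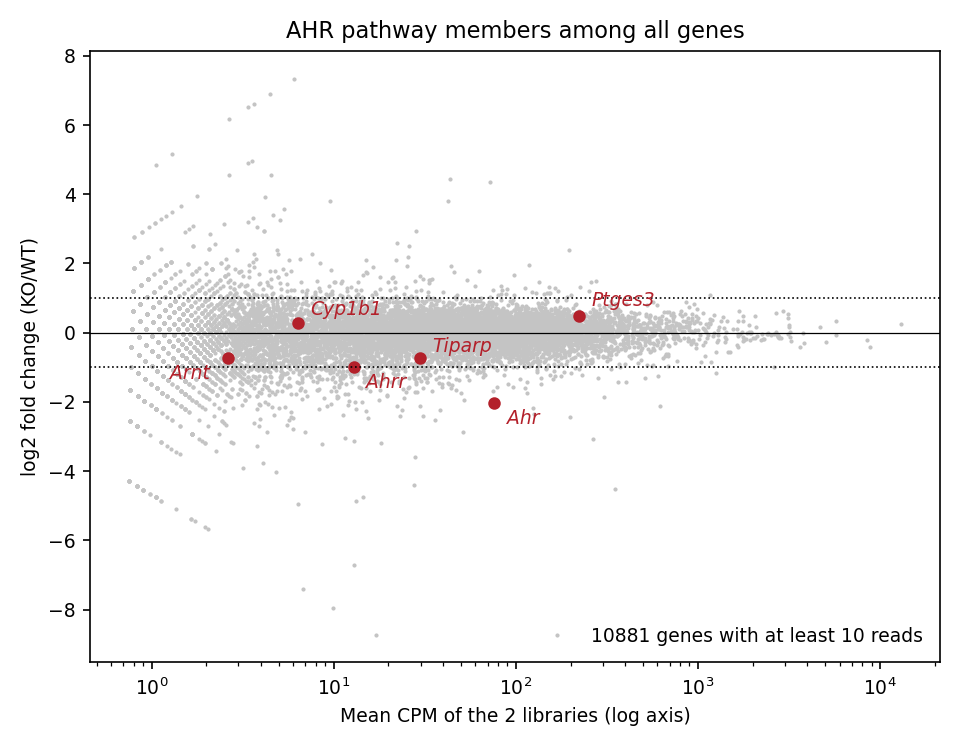
Log2FC against the mean level of both libraries (CPM, log axis) for the 10881 genes with at least 10 reads, in grey, with the 6 members in red. *Ahr* lies at -2.03, below the dotted line that marks 2-fold, and the other 5 lie within or at the edge of 2-fold.

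Among 10839 genes with reads in both libraries, the 5 whose pair of levels was nearest to that of *Ahr*, by the distance of log2 CPM over these 2 libraries, were *Plcb2* (763 and 220 reads), *Cbl* (783 and 245), *Fnip1* (623 and 237), *Kdm7a* (634 and 252) and *Smo* (620 and 250). The nearest, *Plcb2*, was 0.27 away on the log2 scale and had a log2FC of -1.69, less low than that of *Ahr*.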

How the data were processed

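RNA-seq of 1 WT and 1 KO library of Th17 cells was used. Mapping was to mm10 with SOAP2 according to the study's methods, and the submitters' processing notes also name bcl2fastq, HTSeq, Bowtie and SICER 1.1 without tying them to steps. The authors deposited, per gene, raw counts of uniquely assigned reads with no scaling, and the header totals equal the sums. Annotation, strand setting and the treatment of reads that fit several genes or transcripts are not given in the sources used here. Genes with 0 reads are not listed.

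Library totals scaled the counts, and 0.5 was added to both counts of a gene before the log2 fold change (log2FC) was taken. A gene was counted from 10 reads over both libraries and called at 2-fold. The study used the same fold together with a limit on the false discovery rate, which was not applied here. The counts of genes called are therefore not those of the study. With 1 library per genotype no test between genotypes can be made, so no p-value is given. Exact 95% intervals were Clopper-Pearson on the KO share of a gene's reads, Poisson for levels and conditional for ratios between genes. They cover counting error only, since 1 library per genotype shows no spread between libraries. They also take reads as independent molecules, which reads are not, and so may be too narrow. RPKM used the longest GENCODE M21 transcript, found for 99.0% of genes. Positions, exons and promoters were from RefSeq on GRCm38, the assembly of mm10, and near copies from blastn at 95% identity over 100 bases.

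The members and lists were chosen with earlier results of these data known. Named were the members, *Trim28*, in each list up to 6 genes with at least 20 reads past 2-fold and the gene with the most reads per kilobase in WT, and the 5 genes nearest to *Ahr*. Other genes are named as examples of a list, chosen after their values were seen. Alternatives were TMM and upper-quartile scaling (edgeR 4.0.16), DESeq2 1.42.0 size factors, 5 added to each count, a loess curve against transcript length (statsmodels 0.14.6, span 0.3), 2 other count filters, 1.5-fold, intervals wholly beyond 2-fold, the exact binomial test (SciPy 1.17.1) and edgeR's exact test with assumed variation of 0.2 and 0.4. The calculations were tested on simulated data. Not every gene of the lists is reported here.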

Additional observations from a re-analysis of the deposited data

How the results depend on the processing

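No paired analysis was possible because there is 1 library per genotype, and no library can be left out. The log2 fold changes of the 8 members kept their sign under every scaling, with 5 added to each count and, for the 6 with at least 10 reads, with the length curve taken off. They stayed within their counting intervals except that the length curve moved *Ahr* from -2.03 to -1.77 and *Ptges3* from 0.47 to 0.31. Across 10795 genes with a length, Spearman's rho of fold change and length was -0.37 (genes are not independent), and the median length was 4712 bases for the 6 members and 3317 for all genes tested.

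The number of members lower by at least 2-fold (2) was 1, *Ahr* alone, with TMM, DESeq2 size factors, 5 added to each count, the length curve, intervals wholly beyond 2-fold and the exact test of edgeR with the variation set to 0.2. It was 4 at 1.5-fold, with *Arnt* and *Tiparp* added, and 0 at an assumed variation of 0.4. It was 3 with no count filter, which adds *Nqo1* on 1 read.

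Over all genes, 864 lower and 408 higher became 551 and 262 with 5 added to each count, 2012 and 1152 with no filter, 406 and 195 with at least 10 reads in each library, 1927 and 1170 at 1.5-fold, 206 and 99 with intervals wholly beyond 2-fold, and 131 and 65 or 9 and 7 at an assumed variation of 0.2 or 0.4. With the exact binomial test they were 602 and 280. For the 8 lists together, 13 lower and 4 higher became 8 and 2 with at least 10 reads in each library and 36 and 8 at 1.5-fold. The 4 higher genes became 2 with the exact binomial test and 0 with intervals wholly beyond 2-fold and at a variation of 0.2, and at 0.4 both counts were 0. The causes were not tested, beyond the stricter or looser limits themselves. Of 192 counts of single lists, 145 stayed within 1.5 times. Many of the 192 belong to counts that were 0 in the main setting, and most of those stayed at 0. The 145 is thus no measure of how stable the other counts were. At 22 and 12 reads or fewer, as for *Arnt*, *Cyp1a1* and *Nqo1*, depth limits what can be said.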

Other observations

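The level of a gene in both libraries went with the number of transcripts that RefSeq lists for it, a property that bears on *Arnt* and *Cyp1a1*. Of the 10881 genes with at least 10 reads, 10210 matched a gene with RefSeq transcripts. The 5675 genes with 1 transcript had a median of 12.2 RPKM in WT, the 2202 genes with 2 transcripts 6.46, the 1058 genes with 3 transcripts 4.65 and the 1275 genes with 4 or more 4.29. The KO medians were 12.2, 6.33, 4.23 and 3.85 RPKM. Median log2 fold changes over the same classes ran from 0.01 to -0.07. Genes with 2 transcripts were split by the share of exonic bases that are in only 1 transcript. The median levels were 6.50 RPKM in WT and 5.86 in KO where the share is under 5%, 6.20 and 6.30 where it is 5% to 20%, 7.22 and 7.75 where it is 20% to 50%, and 6.36 and 5.95 where it is 50% or more. The annotation used for the counts is not given in the sources used here. Of the members, *Ahr*, *Ahrr*, *Arnt*, *Cyp1a1* and *Cyp1b1* have 2 RefSeq transcripts and *Tiparp*, *Nqo1* and *Ptges3* have 1. The part of this in the low counts of *Arnt* and *Cyp1a1* was not tested.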
